A study of Homo sapiens with 11 samples.

Results

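S-phase cardiomyocytes are taken here as heart muscle cells that held messenger RNA of genes used to copy DNA and little of genes used to divide. They were found in single-cell RNA libraries made from cells derived from H9, an established human embryonic stem cell line, at day 42.5. A barcode entered when it had 1000 or more UMIs (unique molecular identifiers, each standing for 1 captured RNA molecule), 500 or more genes and at most 30% mitochondrial UMIs. It was taken as a cardiomyocyte when TNNT2 and MYH6, the genes of cardiac troponin T and alpha myosin heavy chain, together held 0.15% or more of its UMIs. A member had 3 or more UMIs over PCLAF, CDC6, DTL, CDC45, MCM10 and UHRF1 and fewer than 3 over MKI67, TOP2A, CENPF and UBE2C. This rule found 570 members among 13426 cardiomyocytes, which came from 17346 deposited barcodes. There were 287 members in 2D culture, 133 in cardioids (heart-like cell aggregates) without PD173074 and 150 in cardioids with PD173074. PD173074 is an inhibitor of FGF receptors, and when and for how long it was given is not in the sources used here. The cells had been freed with a cardiomyocyte dissociation kit and read with a 10x Genomics 3′ assay of version 2 or 3. Where 3 values follow each other, they are in the order 2D culture, cardioids without PD173074 and cardioids with PD173074.

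The 11 libraries were 3 of 2D culture, 5 of cardioids without PD173074 and 3 of cardioids with PD173074. Within a group they shared 99.3% to 99.9% of their barcodes over 16 pairs, and between groups 0.195% to 0.737% over 39 pairs. The libraries of a group were therefore treated as repeat runs of the same cells. Each group counted as 1 sample, run 1 of each was used, and no test between groups was possible. Run 1 held 46304366, 23074862 and 37765195 UMIs in 8604, 3773 and 4969 barcodes. No member barcode was shared between groups.

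A cell that prepares to divide first builds replication complexes on its DNA in G1, then fires them and copies its chromosomes in S phase, and only later makes the spindle proteins of mitosis. Transcription factors of the E2F family switch on the genes for replication at the border of G1 and S, while many genes of G2 and mitosis are switched on later, often through CCAAT boxes. Heart muscle cells leave the cell cycle as they mature, so cells that still make replication genes are a minority in most cardiomyocyte cultures. PCLAF is a partner of the sliding clamp PCNA. CDC6 loads the MCM helicase, and CDC45 and MCM10 help to activate it. DTL directs the destruction of licensing factors once replication has begun, and UHRF1 guides the copying of DNA methylation onto the new strand.

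The promoters of the 6 S-phase genes that chose the members are shown so that the letters through which this programme is known to be switched on can be seen where they are present and where they are not. The stretches are the 120 bases before the annotated start, 5′ to 3′ on the gene's own strand, from RefSeq on GRCh38.p14. Capitals mark CCAAT or its reverse complement ATTGG, and 8 letters of the E2F type: TTTCCCGC, TTTCGCGC, TTTGCCGC or TTTGGCGC on either strand. E2F1, itself one of the E2F family, is shown beside them because its RNA was among those measured below.

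PCLAF, chr15:64381442-64381561, minus strand: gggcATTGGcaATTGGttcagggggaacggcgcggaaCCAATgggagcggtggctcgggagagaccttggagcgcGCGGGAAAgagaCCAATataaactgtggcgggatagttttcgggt

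CDC6, chr17:40287759-40287878, plus strand: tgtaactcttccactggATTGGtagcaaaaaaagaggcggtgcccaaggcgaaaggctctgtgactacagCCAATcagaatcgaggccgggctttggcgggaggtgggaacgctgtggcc

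DTL, chr1:212035628-212035747, plus strand: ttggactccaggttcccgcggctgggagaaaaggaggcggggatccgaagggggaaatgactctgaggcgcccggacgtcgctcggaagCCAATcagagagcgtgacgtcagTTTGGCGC

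UHRF1, chr19:4909381-4909500, plus strand: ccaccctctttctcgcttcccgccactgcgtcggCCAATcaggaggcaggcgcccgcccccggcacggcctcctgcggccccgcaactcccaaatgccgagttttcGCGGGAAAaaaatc

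CDC45, chr22:19479346-19479465, plus strand: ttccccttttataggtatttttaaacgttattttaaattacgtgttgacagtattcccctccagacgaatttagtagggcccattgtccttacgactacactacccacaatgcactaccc

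MCM10, chr10:13161438-13161557, plus strand: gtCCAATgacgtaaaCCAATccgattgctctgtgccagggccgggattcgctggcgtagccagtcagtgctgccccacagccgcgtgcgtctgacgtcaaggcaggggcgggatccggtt

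E2F1, chr20:33686386-33686505, minus strand: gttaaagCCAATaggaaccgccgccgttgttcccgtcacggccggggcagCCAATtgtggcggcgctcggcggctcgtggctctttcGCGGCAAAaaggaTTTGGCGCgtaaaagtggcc

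The E2F letters were found in 4 of the 6 promoters in windows from 250 bases before to 50 after the start, those of PCLAF, CDC6, DTL and UHRF1. In CDC6 the match lies after the start, so it is not in the stretch shown. Over all 27305 promoters of that length in the table, 3.27% held these letters, and 35.6% held CCAAT. Of the 6 promoters, 5 held CCAAT. The promoters of CDC45 and MCM10 held no E2F letters in this window, and that of CDC45 no CCAAT. A match is a description of the letters and was not tested as a binding site.

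Members made up 4.12% (exact 95% binomial interval 3.67 to 4.62) of the 6959 cardiomyocytes of 2D culture. In cardioids without PD173074 they made up 4.32% (3.63 to 5.09) of 3082, and in cardioids with PD173074 4.43% (3.76 to 5.18) of 3385. The 3 shares lay inside each other's intervals, which cover counting error only. Mitotic cardiomyocytes, with 3 or more UMIs of MKI67, TOP2A, CENPF and UBE2C, had shares of 2.59%, 4.09% and 6.09%. Cardiomyocytes with 3 or more UMIs of the 6 S-phase genes numbered 381, 207 and 260. Of these, 24.7%, 35.7% and 42.3% were mitotic by this count and so were not members. The like shares of members therefore hold only under the rule's mitosis limit. The share of members depended on depth. With every cell thinned to 4000 UMIs, which left out 3052, 740 and 912 shallower cardiomyocytes, it was 4.04%, 3.46% and 3.36%. Median UMIs per member were 6509, 7960 and 9984.5, against 4100, 5195.5 and 5767 in the comparison cells, the cardiomyocytes of the same group with no UMI of any of the 10 genes. More than 2 times that comparison median was held by 31.0%, 24.1% and 36.7% of members and by 9.08%, 6.25% and 11.8% of comparison cells. The part of larger cells, later cell cycle stages or doublets in this difference was not tested.

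The comparison cells numbered 5827, 2574 and 2655. The threshold of 3 UMIs cut through a continuous range. Among cells with fewer than 3 UMIs of the mitosis genes, 95, 26 and 32 members had exactly 3 UMIs, and 136, 43 and 62 cells just outside had 2. Most members rested on PCLAF, which had a UMI in 97.2%, 94.0% and 92% of them. DTL was found in 41.5%, 51.1% and 66.7% of members. The repeat runs showed how far membership depended on which molecules were read. Of the members of run 1, 65.2%, 75.9% and 81.3% met the rule again in run 2, and 46.6% in run 3 of the cardioids without PD173074, the library with the fewest UMIs (12266166).

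The members carried heart muscle genes that the selection did not use. TTN, the gene of the giant sarcomere protein titin, had a UMI in 99.7%, 100% and 98.7% of members and in 55.6%, 39.8% and 36.3% of the 1245, 485 and 1241 cells below the cardiomyocyte gate. RYR2, the calcium release channel of the sarcoplasmic reticulum, had one in 97.9%, 97.7% and 99.3% of members and in 50.8%, 37.1% and 34.3% of cells below the gate. ACTN2, a Z-disc protein, was found in 65.2%, 74.4% and 92% of members and in 27.6%, 20.6% and 16.6% of cells below the gate. Droplets below the gate can hold free RNA of muscle cells. They were set apart by low TNNT2 and MYH6, so their lower shares of other muscle genes do not test the members' identity. Comparison cells, at lower median depth, had TTN in 99.2%, 99.2% and 98.8% and ACTN2 in 54.7%, 67.6% and 77.8%. Of the cells below the gate, 5.22%, 3.71% and 4.35% met the same S-phase rule, so the rule by itself is not particular to heart muscle. At a stricter gate of 0.5% for TNNT2 and MYH6, 9.76%, 37.6% and 53.3% of members remained, against 22.8%, 49.2% and 62.9% of comparison cells.

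A check on genes that the rule did not use was made with 92 replication genes in 5 lists, covering licensing, firing, polymerases, nucleotide supply and repair. Their summed share of a member's UMIs had a median of 0.637% in 2D culture, with a lowest value of 0.152% and a highest of 1.66%. In cardioids without PD173074 the lowest, median and highest were 0.0156%, 0.738% and 1.93%, and in cardioids with PD173074 0.0727%, 0.732% and 1.93%. The comparison cells had medians of 0.168%, 0.175% and 0.171%. Thus the middle member lay well above the middle comparison cell in each group, while the lowest members lay below it. Of the members, 248 (86.4%), 116 (87.2%) and 133 (88.7%) lay above the 95th percentile of the comparison cells, which was 0.311%, 0.301% and 0.338%. Mitotic cardiomyocytes did so in 63.3%, 73.0% and 66.0%, and cells below the gate in 14.7%, 16.9% and 12.2%. Because the genes of replication are made in the same cells at the same time, these values describe the members and do not test them.

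**Figure D1:**
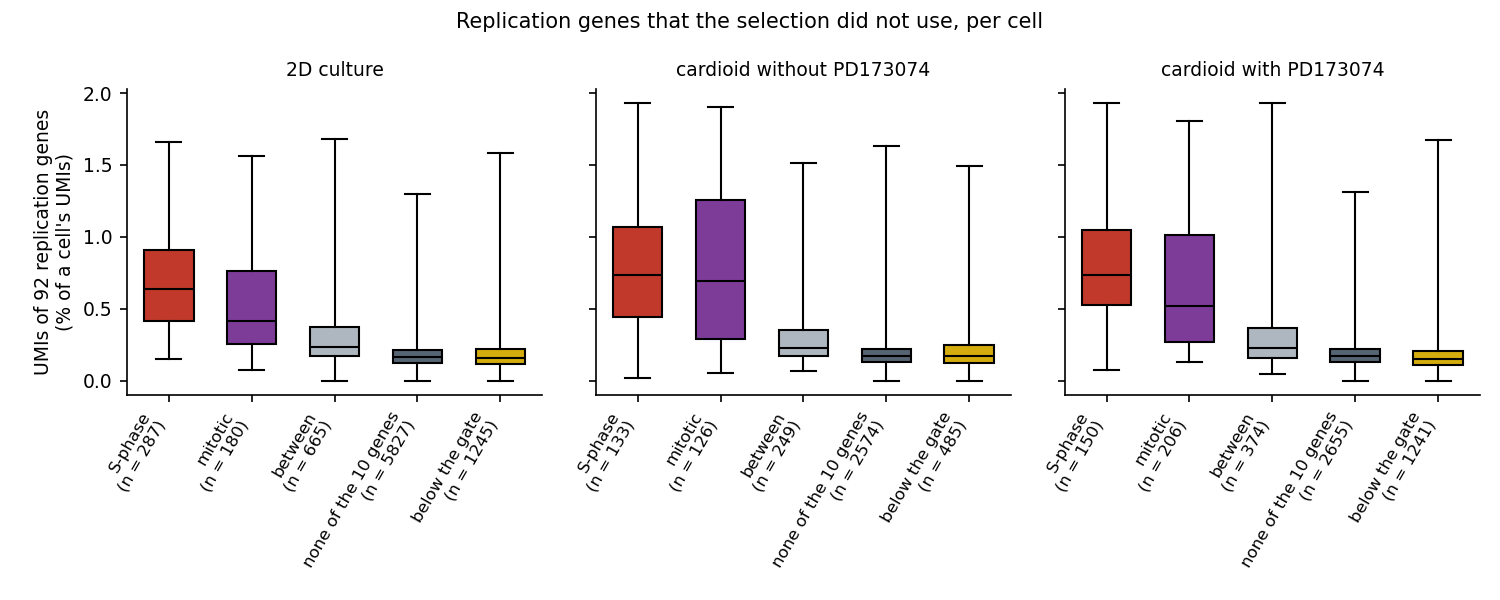
Share of each cell's UMIs that fell on 92 replication genes, none of them used to choose the cells, in the 3 groups. Boxes show the quartiles and median, whiskers the lowest and highest cell, and the number of cells is under each box. Member medians of 0.637%, 0.738% and 0.732% lie above the medians of 0.168%, 0.175% and 0.171% in cells with none of the 10 genes.

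The 6 S-phase genes were not found evenly. In 2D culture 65, 96, 68 and 58 members had UMIs of 1, 2, 3 and 4 to 6 of them. In cardioids without PD173074 the numbers were 26, 36, 38 and 33, and with PD173074 14, 43, 39 and 54. Members with 1 such gene lay above the comparison cells' 95th percentile for the 92 genes in 69.2%, 46.2% and 42.9% of cases. Those with 4 to 6 did so in 98.3%, 100% and 98.1%. The summed level of the 92 genes went from 4227 to 7724 CPM (the UMIs of a gene or list per 1000000 UMIs of the set of cells) in 2D culture between these classes. It went from 3548 to 8570 CPM in cardioids without PD173074 and from 3348 to 7647 CPM with it. Members with 1 gene found thus had the lowest level of these genes in each group.

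The replication lists were lower at 0 S-phase UMIs than at 6 or more in each group, and already higher at 1 and 2 UMIs than at 0. Not every step went up. Genes of the replicative polymerases, clamp and lagging strand went from 509 CPM in cells with 0 S-phase UMIs to 2062 CPM in cells with 6 or more in 2D culture. In cardioids without PD173074 they went from 518 to 2147 CPM, and with PD173074 from 552 to 2114 CPM. Between 3 and 4 to 5 UMIs the licensing list went from 939 to 860 CPM without PD173074, and the repair list from 1212 to 1196 CPM with it. Replication-dependent histones, the genes for the proteins that wrap newly made DNA, did not climb, at 194 and 212 CPM, 393 and 349 CPM, and 328 and 237 CPM at the same ends. Their RNAs mostly lack the poly(A) tail by which a 3′ assay captures RNA, so their level in such libraries may differ from that in the cell. The same list summed to 854, 3035 and 2103 CPM in mitotic cardiomyocytes. The part of capture in the flat course was not tested.

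**Figure D2:**
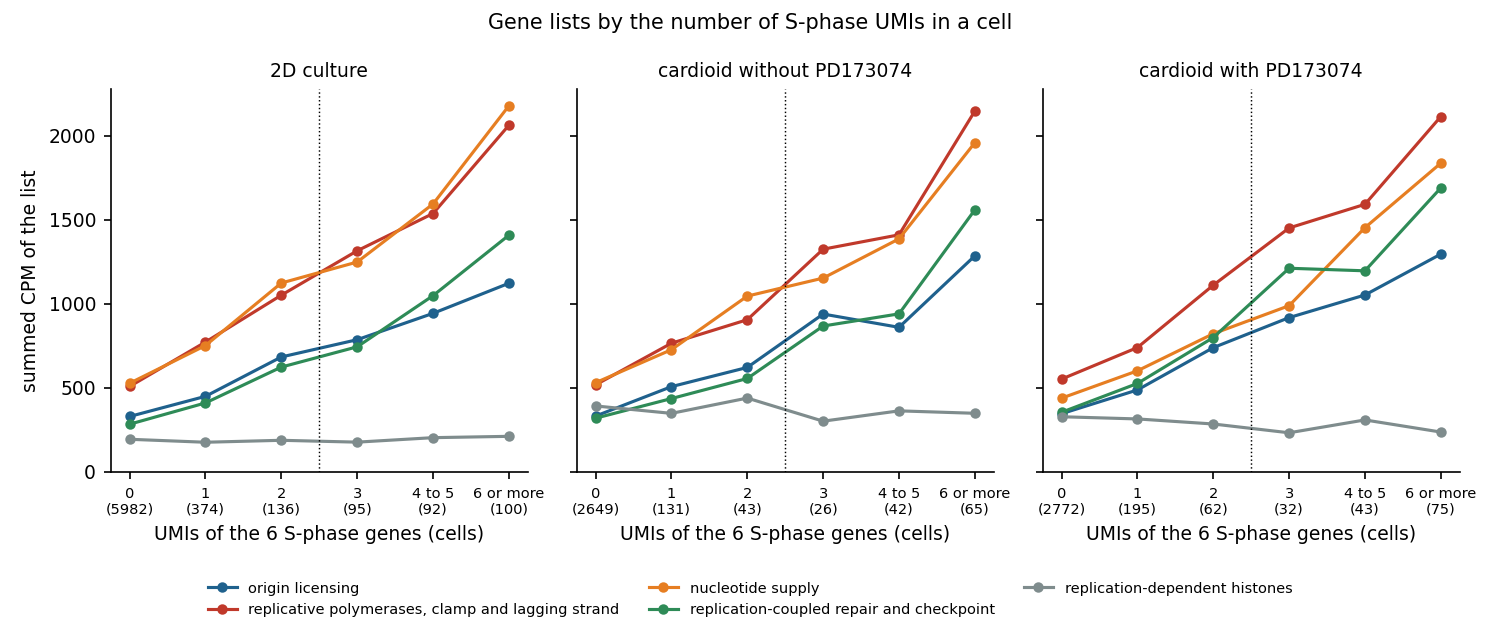
Summed CPM of 5 gene lists in cardiomyocytes with fewer than 3 UMIs of the mitosis genes, by their number of S-phase UMIs, with the number of cells in brackets. The dotted line is the threshold for members. The 4 replication lists are higher at the right end than at the left (polymerases 509 and 2062 CPM in 2D culture), with dips such as licensing without PD173074 from 939 to 860 CPM. The histone list does not climb.

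Gene levels of members and comparison cells were set side by side for genes whose mean over both sets was 10 CPM or more, leaving out the 12 genes that chose the cells. Higher or lower here means that the whole exact 95% interval of the ratio lay beyond 1.5-fold. Of 10240 genes in 2D culture, 329 (3.21%) were higher and 4 (0.0391%) lower. In cardioids without PD173074, 315 of 10227 (3.08%) were higher and 12 (0.117%) lower, and with PD173074 422 of 10241 (4.12%) were higher and 32 (0.312%) lower. In all 3 groups 203 of 9535 genes (2.13%) were higher and 0 (0%) lower. With members and comparison cells both held to 5000 to 20000 UMIs, 201 genes were higher in all 3 groups, 187 of them among the 203. The median log2 ratio over all these genes was 0.021, 0.0048 and -0.0058. Since the cells were chosen by their own counts in this same comparison, the counts are descriptions without a test. A gene that is nearly silent in the comparison cells passed the level filter through the members alone, so shares of listed genes that passed are not shares of whole lists.

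Origin licensing, the loading of the MCM helicase onto DNA, had 9 of 14 genes higher in all 3 groups. These were ORC6, CDT1, GMNN and MCM2 to MCM7. The list median log2 ratio was 2.20, 2.42 and 2.53. The whole list of 15 genes summed to 965, 1100 and 1170 CPM in members and to 328, 332 and 346 CPM in comparison cells. MCM3, a helicase subunit, stood at 199, 189 and 186 CPM in members against 43.0, 36.2 and 34.6 CPM, log2 ratios of 2.21, 2.39 and 2.43. MCM5, another subunit, stood at 53.4, 48.3 and 76.9 CPM against 4.05, 4.42 and 6.26 CPM. CDT1, the loader that is destroyed when S phase begins, stood at 32.2, 44.5 and 41.4 CPM against 0.960, 0.937 and 1.92 CPM, log2 5.07 (4.41 to 5.76), 5.57 (4.71 to 6.53) and 4.43 (3.82 to 5.07). The subunits of the origin recognition complex other than ORC6 were not among the genes counted in every group. E2F letters were in 6 of the 13 licensing promoters found in the table.

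Origin firing and fork protection had 9 of 11 genes higher in all 3 groups: GINS1, GINS2, TOPBP1, MTBP, CDC7, WDHD1, TIMELESS, CLSPN and DONSON. The 15 genes summed to 551, 610 and 630 CPM against 115, 116 and 117 CPM. GINS2, part of the active helicase, stood at 124, 185 and 157 CPM against 9.96, 9.83 and 12.2 CPM. CLSPN encodes claspin, which links stalled forks to the checkpoint kinase CHEK1. It stood at 36.6, 48.3 and 64.5 CPM in members and near 1 CPM in comparison cells (0.925, 0.803 and 1.18). CHEK1 itself stood at 63.1, 96.7 and 81.0 CPM against 11.4, 10.4 and 10.5 CPM. E2F letters were in 6 of 11 promoters of this list.

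Of the polymerase, clamp and lagging strand genes, 19 of 23 were higher in all 3 groups, with list medians of 1.96, 2.22 and 2.25. They included the primase and polymerase alpha genes POLA1, POLA2, PRIM1 and PRIM2, the clamp loader genes RFC2 to RFC5, and FEN1 and LIG1, which process and seal lagging strand fragments. PCNA, the sliding clamp, stood at 164, 180 and 177 CPM in members and 23.1, 20.9 and 24.4 CPM in comparison cells. Its log2 ratio was 2.82 (2.63 to 3.01), 3.11 (2.86 to 3.35) and 2.86 (2.65 to 3.08). With cells thinned to 4000 UMIs, PCNA had a UMI in 45.4%, 54.6% and 48.1% of members and in 8.66%, 7.55% and 10.0% of comparison cells. FEN1 stood at 52.0, 82.1 and 60.9 CPM against 5.19, 6.62 and 5.64 CPM. E2F letters were in 6 of 20 promoters of this list.

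Nucleotide supply had 9 of 15 genes higher in all 3 groups, among them RRM1, RRM2, TYMS, TK1 and DUT. TYMS, which makes thymidylate, stood at 368, 344 and 331 CPM in members and 31.3, 30.7 and 17.6 CPM in comparison cells. TK1, the thymidine kinase, stood at 49.4, 51.4 and 57.9 CPM against 0.640, 0.334 and 0.846 CPM. RRM2 encodes the small subunit of ribonucleotide reductase that is made in S phase. It stood at 53.8, 34.5 and 34.9 CPM against 0.498, 0.201 and 0.733 CPM, and at 118, 269 and 203 CPM in mitotic cardiomyocytes. RRM2 was thus far above the comparison cells and was counted as lower than in mitotic cardiomyocytes in all 3 groups. E2F letters were in 2 of 15 promoters of this list, beside 5 of 24 for oxidative phosphorylation and 0 of 17 for the sarcomere, lists without a gene counted in all 3 groups.

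Repair and checkpoint genes that act at replication forks had 14 of 17 genes higher in all 3 groups. The 21 genes summed to 1095, 1255 and 1484 CPM against 282, 317 and 354 CPM. BRIP1, a helicase of the Fanconi pathway, stood at 101, 133 and 201 CPM against 3.27, 3.55 and 8.40 CPM. FANCI, one of the pair of Fanconi proteins clamped onto damaged DNA, stood at 82.5, 85.9 and 89.9 CPM against 8.82, 6.89 and 6.48 CPM. EXO1, an exonuclease of mismatch repair, stood at 23.8, 22.2 and 24.2 CPM against 0.498, 0.535 and 0.733 CPM. By contrast 1 of 11 p53 target genes was higher in all 3 groups, DDB2, which recognises ultraviolet damage. CDKN1A, the p53 target that blocks cyclin-dependent kinases, stood at 8.38, 10.7 and 2.37 CPM against 9.03, 5.49 and 3.10 CPM, with a mean under 10 CPM in each group.

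Genes that assemble and mark new chromatin had 10 of 14 genes higher in all 3 groups. They included CHAF1A, a subunit of the histone chaperone at the fork, DNMT1, the maintenance DNA methyltransferase, and HELLS, a remodeller needed for DNA methylation. HELLS stood at 123, 135 and 152 CPM against 11.8, 14.4 and 20.2 CPM. CHAF1A stood at 38.4, 44.5 and 50.9 CPM against 3.95, 4.28 and 4.28 CPM. SLBP binds the stem-loop of histone RNAs, and stood at 56.9, 55.2 and 61.5 CPM against 24.1, 25.6 and 22.9 CPM. The replication-dependent histones themselves had 0 of 5 genes higher in all 3 groups, and their 25 genes summed to 198, 344 and 254 CPM against 192, 393 and 326 CPM. HIST1H4C, a histone H4 gene, stood at 71.4, 90.5 and 66.8 CPM against 45.3, 66.1 and 56.7 CPM. Its log2 ratios of 0.66 (0.41 to 0.89), 0.45 (0.17 to 0.73) and 0.24 (-0.06 to 0.52) had intervals that reached inside 1.5-fold, so it was not counted. On this list the members did not stand apart as the other lists did. Cells late in G1 and cells within S phase cannot be told apart by the rule.

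At the G1 to S border, 6 of 15 genes were higher in all 3 groups: CCNE2, CDK2, E2F1, E2F7, FBXO5 and MYBL2. E2F1 stood at 87.8, 84.4 and 79.2 CPM against 6.97, 6.49 and 6.03 CPM. CCNE2, a cyclin E that drives entry into S phase, stood at 23.8, 20.7 and 25.4 CPM against 0.853, 1.20 and 0.789 CPM. The related CCNE1 stood at 12.3, 16.1 and 14.8 CPM against 3.24, 3.01 and 3.16 CPM, but its mean over both sets was under 10 CPM. The D-type cyclins, which act earlier in G1, were not counted in all 3 groups. CCND1 stood at 62.6, 110 and 35.5 CPM in members and 54.3, 99.6 and 32.0 CPM in comparison cells. CCND2 stood at 120, 134 and 316 CPM against 118, 138 and 216 CPM, a log2 ratio of 0.55 (0.41 to 0.68) in cardioids with PD173074, inside the limit. CCNA2, the cyclin A of S phase and G2, stood at 9.26, 6.14 and 4.14 CPM in members and at 105, 219 and 144 CPM in mitotic cardiomyocytes.

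Of the CDK inhibitors and pocket proteins, RBL1, a relative of RB1, was the 1 gene of 7 higher in all 3 groups, at 41.0, 47.6 and 46.7 CPM against 11.9, 11.5 and 10.6 CPM. CDKN1C, the inhibitor p57, stood at 71.9, 95.1 and 106 CPM in members and 120, 163 and 152 CPM in comparison cells. Its log2 ratios of -0.74 (-0.97 to -0.51), -0.77 (-1.05 to -0.51) and -0.52 (-0.75 to -0.30) had intervals below 0 that reached inside 1.5-fold. CDKN1B, the inhibitor p27, had log2 ratios of -0.65, -0.81 and -0.51 and was likewise not counted. Both inhibitors thus stood at lower values in members of each group, without an interval wholly beyond the limit.

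**Figure D3:**
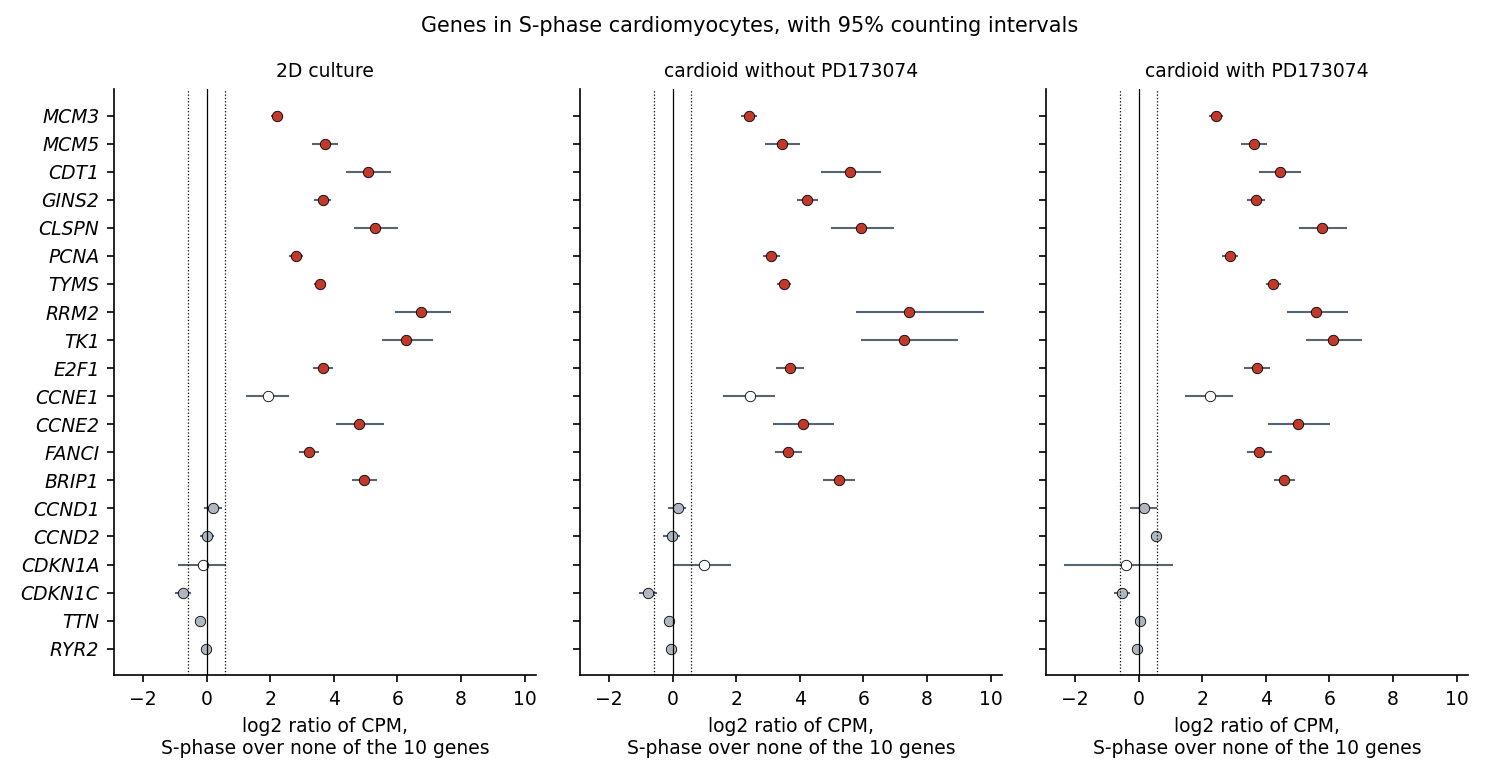
Log2 ratio of CPM in S-phase cardiomyocytes over cardiomyocytes with none of the 10 genes, with exact 95% counting intervals, for 20 genes in the 3 groups. Red points were counted as higher, grey points were not counted, white points had a mean under 10 CPM, and dotted lines mark 1.5-fold. MCM3 to BRIP1 lie to the right (PCNA at 2.82, 3.11 and 2.86), with CCNE1 white for its low mean, while TTN (-0.20, -0.12 and 0.03) lies near 0.

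The 12 genes with the largest median ratio among those higher in all 3 groups were FAM111B, RRM2, MYBL2, MELK, NCAPG, TK1, CLSPN, EXO1, ZNF367, CENPM, CDK1 and CDT1. FAM111B, a protease gene that was on none of the lists, stood at 34.0, 58.3 and 53.2 CPM in members and 0.284, 0.535 and 0.958 CPM in comparison cells. Its log2 ratio was 6.90 (5.85 to 8.16), 6.77 (5.72 to 8.03) and 5.80 (5.04 to 6.64). ZNF367, a zinc finger gene, stood at 44.1, 57.5 and 53.2 CPM against 1.24, 0.803 and 1.35 CPM. MELK, a mitotic kinase gene, stood at 30, 36.8 and 40.2 CPM against 0.356, 0.401 and 0.338 CPM. NCAPG, a condensin subunit, stood at 22.5, 23.8 and 26.0 CPM against 0.284, 0.134 and 0.507 CPM. Genes of later stages such as MELK and NCAPG thus stood above the comparison level in members. The comparison cells were chosen without a UMI of the mitosis genes, while members could hold some. This contrast therefore cannot show how early such genes rise. Among the 203 genes, 160 had a promoter in the table, and 26.9% of these held the E2F letters and 57.5% held CCAAT, beside 3.27% and 35.6% of all promoters.

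Genes of the muscle cell's own work were not among them. Of the sarcomere genes, 0 of 25 were higher or lower in all 3 groups, and the list median was -0.14, -0.19 and -0.14. Over all 9535 genes 2.13% were higher and 0% lower in all 3 groups. Counts of 0 in lists of this size, here and below, thus lie near the share of all genes. The 26 genes summed to 18519, 20311 and 28955 CPM in members and 19864, 22782 and 30684 CPM in comparison cells. TTN had log2 ratios of -0.20, -0.12 and 0.03. NKX2-5, the cardiac homeobox factor, stood at 633, 759 and 363 CPM against 829, 956 and 509 CPM, log2 ratios of -0.39, -0.33 and -0.49 that were not counted. TCAP, the titin cap, stood at 48.1, 62.9 and 37.8 CPM against 107, 103 and 85.1 CPM. TCAP was counted as lower in 2D culture (log2 -1.16, interval -1.45 to -0.88) and with PD173074 (-1.17, -1.55 to -0.81), but not without PD173074 (-0.71, -1.04 to -0.38). Calcium handling genes (0 of 14), heart transcription factors (0 of 16), oxidative phosphorylation (0 of 31) and glycolysis (0 of 20) had no gene counted in all 3 groups.

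MYL2 and MYH7, the ventricular light chain and beta myosin heavy chain, were counted as lower in members of cardioids without PD173074 only, and each rested on few cells there. MYL2 stood at 132, 9.97 and 1.77 CPM in members and 84.8, 40.0 and 4.12 CPM in comparison cells. In 2D culture 69.6% of its UMIs in members came from 5 cells. MYH7 stood at 101, 9.97 and 9.46 CPM against 119, 37.5 and 12.6 CPM. With members taken from 2 UMIs on, the log2 ratios without PD173074 were 0.52 for MYL2 and 0.10 for MYH7, so neither direction held.

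Set against mitotic cardiomyocytes of the same group, the members had low levels of the genes of division. Lower genes numbered 152 of 10321 (1.47%) in 2D culture, 326 of 10320 (3.16%) without PD173074 and 273 of 10244 (2.66%) with it. Higher genes numbered 14 (0.136%), 96 (0.93%) and 83 (0.81%). The low mitosis count was part of the rule, so this contrast too is a description. All tabulated genes of the G2 and mitosis list were lower, 32 of 32, 33 of 33 and 33 of 33. Those 33 genes summed to 519, 528 and 549 CPM in members, 4214, 7090 and 6088 CPM in mitotic cells, and 156, 153 and 156 CPM in comparison cells. Against the comparison cells 7 of 10 were higher in all 3 groups: CDK1, BUB1, BUB1B, NUSAP1, PRC1, ANLN and ASPM. The comparison cells had been chosen without a UMI of the mitosis genes of the rule, so this too is a description. CCNB1, the mitotic cyclin, stood at 7.06, 7.67 and 6.50 CPM in members, 148, 247 and 225 CPM in mitotic cells and 5.05, 5.22 and 5.75 CPM in comparison cells. CDK1, its kinase, stood at 33.1, 23.0 and 31.3 CPM in members against 139, 292 and 250 CPM in mitotic cells and 0.925, 0.669 and 1.24 CPM in comparison cells. CDK1 was thus intermediate, while CCNB1 stood near the comparison level.

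Histone genes also separated the 2 sets. Their 25 genes summed to 198, 344 and 254 CPM in members and 854, 3035 and 2103 CPM in mitotic cardiomyocytes, with 6 of 7, 15 of 16 and 11 of 12 tabulated genes lower in members. HIST1H4C stood at 386, 982 and 1007 CPM in mitotic cells, and HIST1H1B, a linker histone gene, at 83.4, 375 and 187 CPM against 4.85, 6.90 and 6.50 CPM in members. The licensing list went the other way in its sum, at 965, 1100 and 1170 CPM in members and 691, 952 and 752 CPM in mitotic cells. Of its tabulated genes, 2 of 14, 1 of 15 and 3 of 15 were counted as higher in members and 0 as lower. MCM5 was counted as higher in members in 2D culture (log2 1.36) and with PD173074 (1.63), and not without PD173074 (0.84). The boundary between the sets was not sharp, since 94, 74 and 110 of the mitotic cells, or 52.2%, 58.7% and 53.4%, also had 3 or more S-phase UMIs. ALK, a receptor tyrosine kinase gene on none of the lists, was the single gene counted as higher than in mitotic cells in all 3 groups and was named after its values were seen. ALK stood at 153, 71.3 and 27.8 CPM in members, 71.2, 27.1 and 7.30 CPM in mitotic cells and 97.0, 52.0 and 9.13 CPM in comparison cells.

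**Figure D4:**
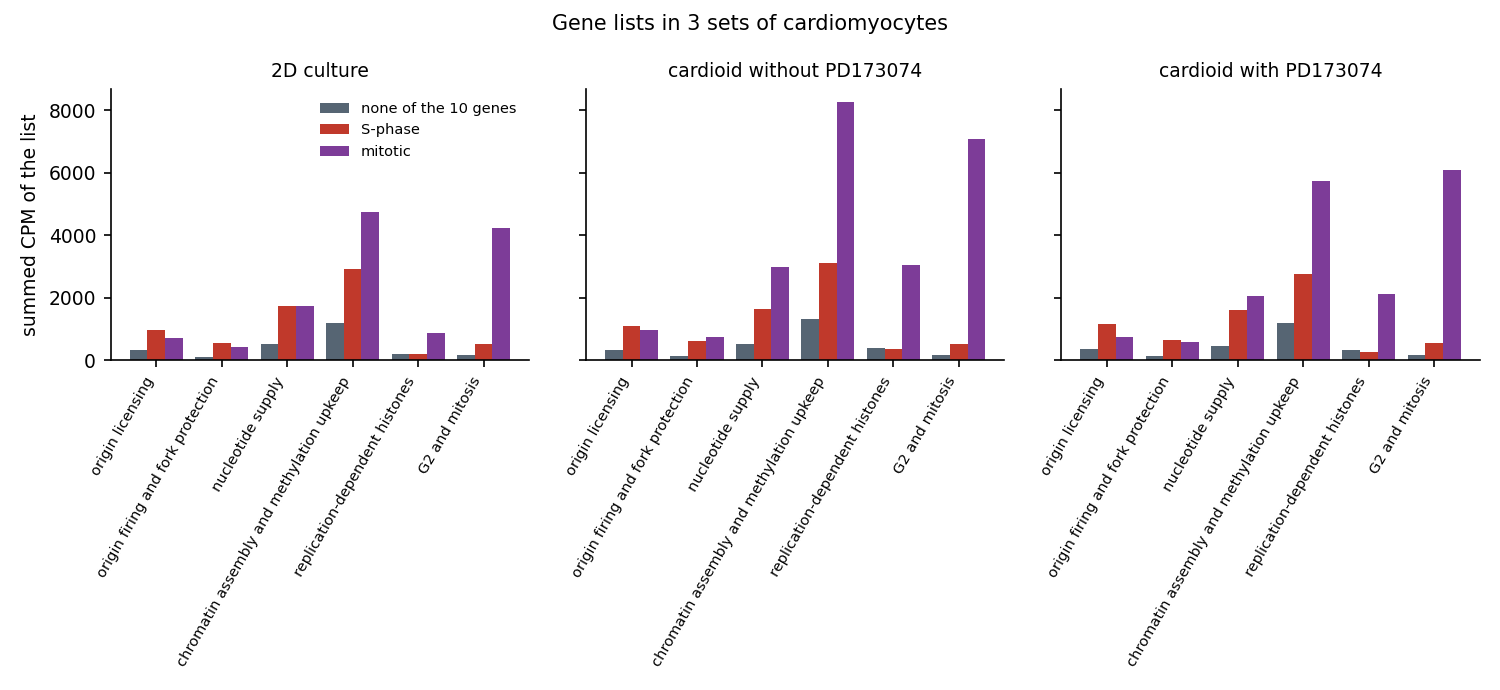
Summed CPM of 6 gene lists in cardiomyocytes with none of the 10 genes, S-phase cardiomyocytes and mitotic cardiomyocytes of the 3 groups. Licensing is highest in S-phase cells (965, 1100 and 1170 CPM), while histones (198, 344 and 254 CPM) stay near the cells with none of the 10 genes and far below the mitotic cells.

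Within the members, 57.8%, 51.9% and 60% had no UMI of the 4 mitosis genes and the others had 1 or 2. Members with 1 or 2 had higher values of several other cell cycle genes. RRM2 stood at 22.3, 12.4 and 30.4 CPM in members with 0 mitosis UMIs and at 92.9, 56.3 and 40.7 CPM in those with 1 or 2. HMGB2, a chromatin protein most abundant in G2, stood at 157, 167 and 226 CPM and at 277, 329 and 328 CPM. CCNE2 stood at 17.5, 9.28 and 12.6 CPM and at 31.6, 31.9 and 42.1 CPM. The values of these 3 genes were higher in the second class of every group, which had median depths of 6691, 8079.5 and 10096 UMIs against 6385, 7818 and 9721. The histone list stayed at 189, 337 and 230 CPM in the first class and 210, 351 and 286 CPM in the second.

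Between groups, members were compared with a 2-fold limit, each group being 1 sample. Cardioids with PD173074 against those without had 170 of 10373 genes higher (1.64%) and 124 lower (1.2%). With PD173074 against 2D culture, 265 of 10425 were higher (2.54%) and 140 lower (1.34%), and cardioids without PD173074 against 2D culture had 37 of 10332 higher (0.358%) and 8 lower (0.0774%). These comparisons share groups, so they are not independent. The licensing, firing, polymerase, nucleotide, chromatin, histone, repair and mitosis lists had 0 genes counted in any of the 3 pairs. Members of every group met the same S-phase and mitosis limits, so like levels of these lists do not test a likeness between groups. At most 2.54% of all genes were counted in a direction, and 0 in lists of this size lies near that share. The histone list still had a median log2 ratio of 1.42 without PD173074 over 2D culture and 0.83 with PD173074 over 2D culture, with 6 of 6 and 5 of 6 genes above 0. In comparison cells 4 of 8 and 3 of 7 histone genes were counted as higher in these pairs, with medians of 1.21 and 0.996. The summed polymerase list stood at 1678, 1785 and 1869 CPM. The G1 to S list had CCND1 lower with PD173074 than without (log2 -1.64, interval -2.10 to -1.19, and -1.64 in comparison cells) and CCND2 higher than in 2D culture (1.40, 1.19 to 1.62, and 0.87 in comparison cells).

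Some lists with genes counted between members of the groups are given beside the comparison cells of the same groups. Immediate early genes, which are made within minutes of a stimulus, had 9 of 13 higher with PD173074 than in either other group, with list medians of 1.72 over cardioids without it and 2.09 over 2D culture. In comparison cells 8 were higher in each pair, with medians of 1.20 and 1.64. FOS stood at 150, 168 and 604 CPM in members and 144, 177 and 407 CPM in comparison cells. EGR1 stood at 56.0, 78.2 and 266 CPM in members and 51.5, 80.2 and 251 CPM in comparison cells. The medians of the members were larger than those of the comparison cells in both pairs, a difference that was not tested.

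Glycolysis had 5 of 20 genes lower in members with PD173074 than in either other group, with medians of -0.64 and -0.66. The comparison cells had -0.58 and -0.60. LDHA, lactate dehydrogenase, stood at 1346, 1461 and 425 CPM in members and 1657, 1860 and 758 CPM in comparison cells. PGK1, phosphoglycerate kinase, stood at 888, 819 and 254 CPM in members and 1090, 1063 and 408 CPM in comparison cells. Calcium handling had 4 genes higher with PD173074 than in either other group. CACNA1D, a calcium channel of pacemaker and atrial cells, stood at 337, 565 and 1331 CPM in members and 316, 726 and 1540 CPM in comparison cells. FGF12, an intracellular regulator of sodium channels, stood at 6.62, 35.3 and 413 CPM in members and 13.7, 14.3 and 131 CPM in comparison cells, and 52 members with PD173074 held it.

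Chamber genes in members kept the group differences of the other cardiomyocytes. MYL7, the atrial light chain, stood at 1884, 2384 and 8495 CPM in members and 1680, 2719 and 8057 CPM in comparison cells. NPPA, the atrial natriuretic peptide, stood at 14.1, 36.8 and 122 CPM in members. NR2F2, an atrial transcription factor, stood at 21.6, 79.0 and 446 CPM in members and 23.4, 87.4 and 416 CPM in comparison cells. NR2F1, its paralog, had no UMI in members of 2D culture and stood at 5.37 and 65.0 CPM in the cardioids. With a floor of 3 UMIs over the group it was at least 49.2-fold higher with PD173074 than in 2D culture. SHOX2, a factor of the sinoatrial node, stood at 0, 0.767 and 47.9 CPM, at least 36.2-fold higher with PD173074 than in 2D culture by the same floor.

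On the other side, MASP1, a complement protease gene, stood at 173, 146 and 8.28 CPM in members and 179, 155 and 4.17 CPM in comparison cells. RSPO3, a secreted enhancer of WNT signals, stood at 753, 972 and 137 CPM in members and 748, 1070 and 125 CPM in comparison cells. IRX4, a ventricular homeobox factor, stood at 48.1, 81.3 and 11.8 CPM in members and 67.2, 87.6 and 16.2 CPM in comparison cells. With cells thinned to 4000 UMIs, NR2F1 had a UMI in 0%, 2.52% and 21.5% of members and 0.0988%, 1.67% and 19% of comparison cells. MASP1 had one in 48.2%, 42.9% and 0.741% of members. For these genes the groups came in the same order in members and in comparison cells.

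**Figure D5:**
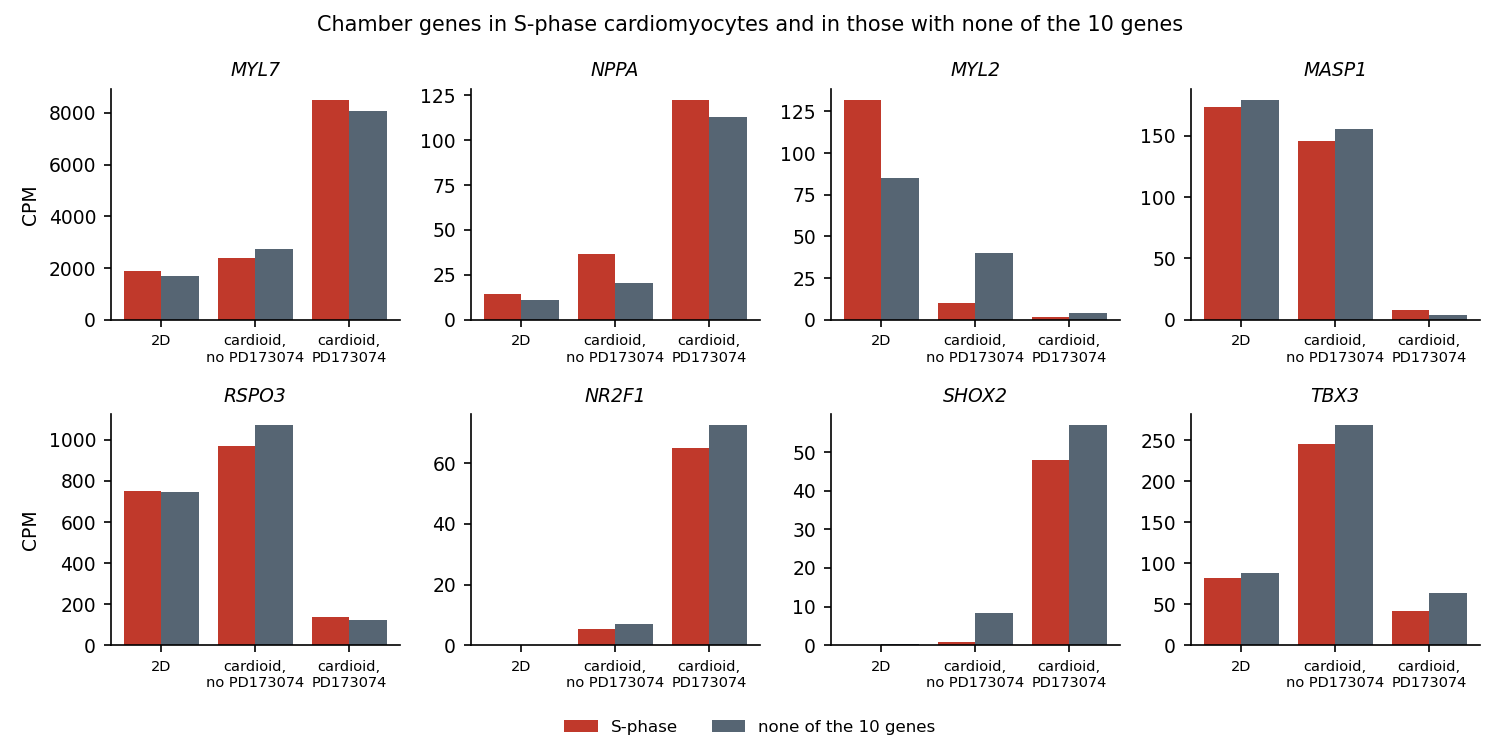
CPM of 8 chamber-related genes in S-phase cardiomyocytes (red) and in cardiomyocytes with none of the 10 genes (grey) of the 3 groups, each panel with its own axis from 0. Red and grey bars are of like height in most panels, as for MYL7 at 1884 and 1680, 2384 and 2719, and 8495 and 8057 CPM. The MYL2 bars differ, at 132 and 84.8, 9.97 and 40.0, and 1.77 and 4.12 CPM.

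The 6 highest and 6 lowest genes of each pair included several that came from few cells. DLK1, a growth regulator of fetal tissue, stood at 36.6, 0.767 and 221 CPM, with 98.8% and 97.9% of its UMIs in 5 cells in 2D culture and with PD173074. SFRP2, a secreted WNT inhibitor, stood at 0, 0.767 and 118 CPM in 0, 1 and 8 cells. GABRP, an epithelial marker, was found in 8 members with PD173074, 83.7% of its UMIs in 5 of them. CRHBP stood at 6.17, 61.4 and 0.591 CPM, with 77.5% of its UMIs without PD173074 in 5 cells. USP18, an interferon-induced protease gene, stood at 19, 28.4 and 0.591 CPM and was spread over 36 and 26 members in 2D culture and without PD173074. COLEC12 stood at 9.26, 41.4 and 2.37 CPM, and NEFM, a neurofilament gene, at 27.8, 56.0 and 2.96 CPM. In comparison cells USP18 stood at 24.5, 29.2 and 2.82 CPM and NEFM at 47.2, 81.8 and 3.95 CPM.

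Markers of other cell types were measured in the same sets. The 8 stromal markers summed to 972, 1102 and 809 CPM in members, 512, 391 and 780 CPM in comparison cells, and 16856, 8900 and 4952 CPM in the cells below the gate. In cardioids without PD173074, 98.3% of the COL1A1 UMIs and 98.1% of the COL1A2 UMIs in members came from 5 cells. FN1 and SPARC, matrix genes, were among the 203 genes higher in all 3 groups, with FN1 at 323, 431 and 219 CPM against 186, 81.8 and 74.1 CPM. Cartilage markers summed to 66.6, 43.7 and 137 CPM in members and 30.3, 19.4 and 53.6 CPM in comparison cells. Epithelial markers summed to 86.4, 126 and 375 CPM and 123, 141 and 186 CPM, and 4, 4 and 1 of their 7 genes had no UMI in members. Endothelial markers summed to 147, 102 and 44.9 CPM and 138, 98.3 and 46.7 CPM, with 2, 4 and 5 of 6 at 0, PECAM1 and CDH5 among them in 2D culture. Endoderm markers had 4 of 6 at 0 in members of every group, and summed to 49.0, 41.4 and 9.46 CPM against 53.6, 37.5 and 14.8 CPM. Epicardial markers had 3, 2 and 2 of 4 at 0, and summed to 2.65, 3.07 and 1.77 CPM against 4.16, 2.27 and 14.3 CPM. Smooth muscle markers had 0 of 4 at 0 (1282, 1253 and 2390 CPM in members and 1355, 1307 and 2651 CPM in comparison cells). Members held far fewer UMIs in sum than comparison cells, so a gene at 0 in them need not be absent.

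Members above the comparison cells' 95th percentile for the summed other-cell markers made up 8.36%, 6.77% and 4.67%, beside 5.01% of comparison cells in each group. With only cells at or below the comparison median for these markers, a choice made after seeing the data, 170 genes were higher in all 3 groups, 162 of them among the 203, and 9 licensing genes were counted. FN1 and SPARC were no longer counted in all 3 groups in that set. Neither was counted in all 3 groups with a 2-fold limit, from 4 S-phase UMIs on or in run 2. Both were counted from 2 S-phase UMIs on, with a mean of 30 CPM and with no filter. They were also counted with ratios centred on their median and with at most 15% mitochondrial UMIs. In cells of 5000 to 20000 UMIs FN1 was counted and SPARC was not. The part of doublets or of free RNA in the matrix genes was not tested further. With PD173074, 3 of 9 YAP target genes were higher in members than in comparison cells, CCN1 at 268 against 144 CPM, CCN2 at 89.9 against 47.8 CPM and ANKRD1 at 33.7 against 12.9 CPM. Over all genes, 4.12% were higher in that group. In the other groups 0 of these YAP target genes were counted, beside 3.21% of all genes higher in 2D culture and 3.08% without PD173074. A count of 0 in so short a list lies near those shares.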

How the data were processed

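The authors deposited UMI count matrices of single cells, raw and without normalization. The submitters' processing notes name Cell Ranger 7.0.0 and the hg38 build; no annotation release was found. Run 1 of each group was read in Python 3.11.15 with numpy 2.4.6, scipy 1.17.1 and pandas 2.3.3. UMIs were summed over each set of cells and divided by the set's total (CPM). Log2 ratios carry exact 95% intervals from the conditional binomial, which cover counting error only. They take the UMIs of a set as independent, so they hold neither variation between cells nor variation between samples. Each group is 1 sample. A gene whose UMIs come from few cells can therefore be counted. Where a set had no UMI, a floor of 3 UMIs over the set was used. No doublet caller was run. Shares of cells with a UMI use all cells of a set, except where thinning to 4000 UMIs (seed 0) is named. The comparison of summed sets was tested on simulated counts drawn without variation between cells.

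The members, the 32 gene lists (479 genes) and the alternatives were chosen with earlier results of these data known. Named genes are the rule genes, TNNT2 and MYH6, up to 4 genes per list with the largest median ratio, the 12 highest genes counted in all 3 groups, the 6 highest and 6 lowest per pair of groups, and a set of cell cycle genes; further list genes are given as examples, chosen after their values were seen. Figures were drawn with matplotlib 3.10.9.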

Additional observations from a re-analysis of the deposited data

Results flagged for a closer look

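AC092691.1, a gene known only by a clone name, was counted as higher in members than in comparison cells in cardioids without PD173074 and as lower in cardioids with PD173074, which is why it is given here. It stood at 13.7, 40.7 and 27.2 CPM in members and at 8.57, 18.2 and 56.2 CPM in comparison cells of 2D culture, cardioids without and cardioids with PD173074. The log2 ratios were 1.16 (0.71 to 1.59) without and -1.05 (-1.51 to -0.62) with PD173074, a difference of 2.21 that was not tested, since each group is 1 sample. In members it was found in 12 and 13 cells of these groups, with 81.1% and 76.1% of its UMIs in 5 cells.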

How the results depend on the processing

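No paired analysis was possible because each group is 1 sample. The share of members in 2D culture, cardioids without and cardioids with PD173074 was 6.08%, 5.71% and 6.26% from 2 S-phase UMIs on and 2.76%, 3.47% and 3.49% from 4 on. It was 1.89% and 3.41% in the first 2 groups at the 0.5% gate. Thinned to 2000 UMIs it was 1.47%, 1.78% and 1.51%, to 4000 UMIs 3.46% and 3.36% in the cardioids, and to 8000 UMIs 7.89%, 9.38% and 7.63%. It was 2.65% in run 3 of the cardioids without PD173074.

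Genes higher than in comparison cells numbered 194, 202 and 240 with a 2-fold limit, 145, 138 and 190 with a mean of 30 CPM, and 621, 554 and 675 with no filter. Genes lower numbered 0, 4 and 6 with a 2-fold limit, 2 and 4 in 2D culture and without PD173074 with a mean of 30 CPM, and 14, 27 and 54 with no filter. Lower genes also numbered 20 from 4 UMIs on and 19 in run 2 without PD173074, 54 with PD173074 in cells of 5000 to 20000 UMIs, and 7 in 2D culture at low other-cell marker shares. Genes higher in all 3 groups numbered from 85 (mean of 30 CPM) to 325 (no filter).

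Between members, a 1.5-fold limit gave 317 higher and 281 lower with over without PD173074, 83 and 31 without PD173074 over 2D culture, and 447 and 321 with PD173074 over 2D culture. Lower genes without PD173074 over 2D culture numbered 5 in run 2 and 14 at low other-cell marker shares.

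Directions turned for 12 values of genes that were counted in the main setting. COL1A2 against comparison cells in 2D culture was -0.20 in run 2 and -0.24 at low other-cell marker shares. At those low shares without PD173074, COL1A2 was -1.14 and COL3A1 -1.46. From 2 UMIs on without PD173074, MYH7 was 0.10 and MYL2 0.52. At low shares, members with over without PD173074 had COL1A1 at 0.35 and COL1A2 at 1.31, and members with PD173074 over 2D culture had COL1A2 at 0.55 and KRT19 at -1.71. In run 2 the last pair had COL1A1 at 0.087 and COL1A2 at 0.16. The cause was not tested. Of the values of named genes against comparison cells, 3277 were classed as the same, 249 as moved and 6 as turned. The same means inside the counting interval of the main setting. Turning was recorded only for genes counted in the main setting, so other genes may have changed direction unrecorded. The 2-fold limit (373 values), no filter (373) and the mean of 30 CPM (233) leave a gene's ratio as it is. Their values, all among the 3277, could not move. An alternative with fewer than 2 UMIs of other-cell markers left too few members to give values. The low-share alternative was chosen after seeing the data.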
